A study of Mus musculus with 12 samples.

Results

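Potassium channel subunits are encoded by genes whose names begin with Kcn. All probes with such a name, or with such a current symbol for their accession, were taken, which gave 88 genes and 129 probes of the 27666 genes and 41174 probes on the array. A probe entered the tests when some group had all 3 of its arrays marked well above background by the scanner software (gIsWellAboveBG). Of the 88 genes, 60 were tested through 75 probes, 13 were above background on some arrays only and 15 on no array. On all 12 arrays, 44 genes had a probe above background, and no Kcn probe was saturated.

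The data are transcript profiles of whole uterus from ovariectomized adult mice of mixed C57bl6/J and 129 background, at least 10 weeks old and rested for 10 to 14 days. Each of 12 Agilent 1-colour arrays held the uterus of 1 mouse. The 4 groups of 3 mice were EAAE mice given estradiol (E2), EAAE mice given saline, wild-type (WT) mice given E2 and WT mice given saline. Each injection had a volume of 100 ul, the dose of E2 is not stated in the labels, and the tissue was taken 2 h later. EAAE mice carry, per the series title, an estrogen receptor alpha that is deficient in DNA binding, and ovariectomy is shared by all groups. Whole uterus holds smooth muscle, stroma, epithelium, vessels, nerve and blood cells, so fewer cells of a type and less RNA per cell cannot be told apart. Esr1, which encodes the receptor, was detected on every array and averaged 3.28 in EAAE saline and 2.87 in WT saline uteri. It was 0.41 higher in EAAE (limma adjusted p = 0.00929), and because the title names a binding defect, not a missing transcript, this level is no check of the labels. The unit of every level is the log2 intensity relative to the 75th percentile of its array, and levels of different genes cannot be compared because each probe has its own brightness. Arrays of the same group correlated with r of 0.982 to 0.993 over 1 probe per tested gene (12 pairs). Arrays of different groups correlated with r of 0.918 to 0.988 (54 pairs), so the ranges overlapped.

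Potassium channels let potassium leave the cell and so set the resting potential and end electrical spikes. In uterine smooth muscle, voltage-gated (Kv), large-conductance calcium-activated (BK), small-conductance calcium-activated (SK), ATP-sensitive and tandem-pore channels hold back contraction, and in uterine epithelium potassium channels sustain the driving force for fluid and ion transport. Pore-forming subunits carry the current, while modifier and auxiliary subunits alter gating or delivery to the membrane without conducting on their own.

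Estrogen receptor alpha binds DNA at the estrogen response element, and the windows around gene starts were therefore read for its letters. The windows, from RefSeq on GRCm38.p6, run from 250 bases before to 50 bases after each start, and 64 of the 88 Kcn genes had one, 45 of them among the tested genes. The whole element, GGTCANNNTGACC, occurred in 0.07% of all 32851 windows and in 0 of the 89 Kcn windows. Its half-site, GGTCA or, on the other strand, TGACC, occurred in 40.5% of all windows and in 25.8% of the Kcn windows (23 of 89), and every whole element also counts as a half-site. The AP-1 letters TGANTCA, read because the receptor can reach genes through that factor, occurred in 7.81% of all windows and in 4.49% of the Kcn windows. Of the 14 genes whose response to E2 differed between the genotypes, described later, 11 had a window and 4 had a half-site in one (Kcne3, Kcnf1, Kcnj4 and Kcnk1). The windows of 2 genes that rose after E2 in WT and hold a half-site, of 1 that rose without one and of the gene that fell most are shown with the half-site letters in capitals. A match describes letters only. Kcna1, which also rose, had no window in the table.
Kcnf1, chr12:17176839-17177138, minus strand: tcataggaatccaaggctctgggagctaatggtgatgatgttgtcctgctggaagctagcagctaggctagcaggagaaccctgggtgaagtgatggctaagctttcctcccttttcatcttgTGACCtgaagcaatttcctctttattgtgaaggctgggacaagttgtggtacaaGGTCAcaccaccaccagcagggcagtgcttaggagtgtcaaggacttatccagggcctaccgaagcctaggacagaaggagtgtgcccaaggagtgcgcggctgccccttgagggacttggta
Kcnj4, chr15:79505192-79505491, minus strand: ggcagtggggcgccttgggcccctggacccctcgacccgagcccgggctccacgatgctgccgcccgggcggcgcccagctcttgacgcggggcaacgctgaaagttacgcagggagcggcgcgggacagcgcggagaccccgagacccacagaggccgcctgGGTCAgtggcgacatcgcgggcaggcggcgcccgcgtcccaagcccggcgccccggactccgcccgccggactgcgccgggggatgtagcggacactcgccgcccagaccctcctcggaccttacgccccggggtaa
Kcnk5, chr14:20181733-20182032, minus strand: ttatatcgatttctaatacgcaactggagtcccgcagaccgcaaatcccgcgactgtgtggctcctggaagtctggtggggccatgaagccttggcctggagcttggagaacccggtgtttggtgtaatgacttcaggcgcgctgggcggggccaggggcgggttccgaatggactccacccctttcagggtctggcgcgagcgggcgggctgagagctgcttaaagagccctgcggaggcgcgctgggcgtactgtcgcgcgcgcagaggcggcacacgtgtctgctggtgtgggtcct
Kcnj8, chr6:142571565-142571864, minus strand: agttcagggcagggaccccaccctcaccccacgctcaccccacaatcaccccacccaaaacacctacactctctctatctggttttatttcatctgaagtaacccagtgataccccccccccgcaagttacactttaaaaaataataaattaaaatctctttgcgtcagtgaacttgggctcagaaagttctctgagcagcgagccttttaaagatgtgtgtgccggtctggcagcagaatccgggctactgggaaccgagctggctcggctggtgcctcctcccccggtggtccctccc

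The first comparison asks how the potassium channel transcripts of the WT uterus changed 2 h after E2. Of the 60 tested genes, 13 rose and 10 fell (limma, adjusted p under 0.05 over all genes tested), which is 38.3% of the Kcn genes, against a background of 49.3% of the 19301 genes tested (19.6% higher, 29.7% lower). The share of Kcn genes called was therefore not above that of other genes. Their median change was -0.08, and the median over all genes tested was -0.15 with this scaling and -0.01 with scaling to the array median. Of the 23 called genes, 12 (52.2%) changed at least 2-fold, against 29% of all called genes, a difference that was not tested. A fit with slide as a block and array position as a term called 15 Kcn genes, 14 of them among the 23, and not Kcne1l, Kcne2, Kcne3, Kcng4, Kcnip2, Kcnip4, Kcnj14, Kcnk6 and Kcnq1ot1. The share of all genes called by that fit is not given here. By class, 3 of 18 tested Kv pore-forming genes rose and 2 fell, 2 of 4 modifiers rose and 1 fell, and 2 of 11 Kv auxiliary genes rose and 3 fell. Among pore-forming genes classed as calcium- or sodium-activated 0 of 8 rose and 3 fell, and among BK beta subunits 0 of 3 rose or fell. Among inward rectifiers 2 of 7 rose and 1 fell, and among tandem-pore genes 3 of 8 rose and 0 fell. The noncoding RNA Kcnq1ot1, transcribed antisense to Kcnq1, rose by 0.30 on one probe, while its other probe gave -0.25 and was not past the threshold. The rise did not pass without WT saline mouse 1 or WT E2 mouse 1 or 2 (0.24 to 0.29, adjusted p up to 0.102).

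**Figure D1:**
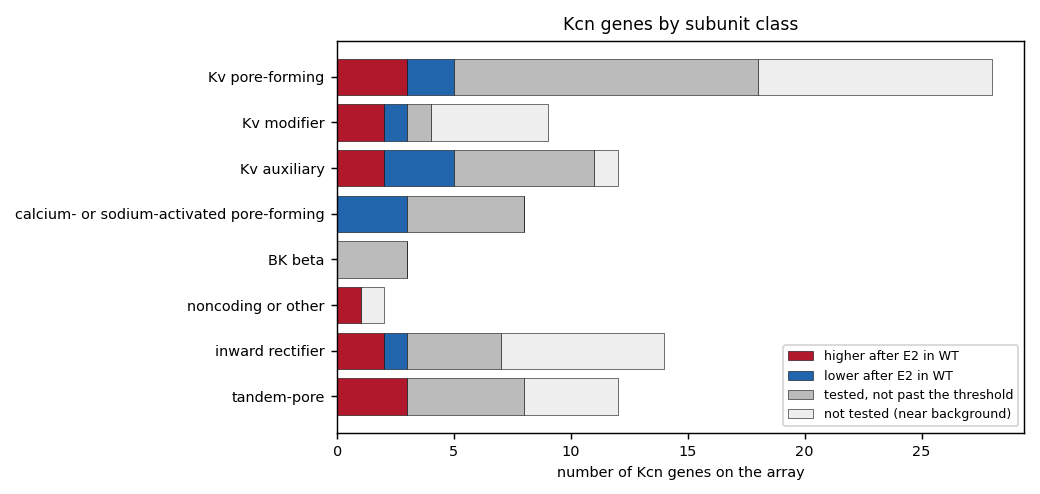
Number of Kcn genes on the array in each subunit class (bars, horizontal axis), divided into genes higher after E2 in WT uterus, lower after E2 in WT uterus, tested but not past the threshold, and not tested. The class labelled calcium- or sodium-activated was tested for all 8 genes and had 3 falls and 0 rises. Classes were assigned by gene, and the gating of each member was not checked.

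Kcns3 and Kcnf1, which encode silent voltage-gated subunits, both rose in WT. Silent subunits do not conduct alone and alter the current of the pores they assemble with. Kcns3, probed at chr12:11154830-11154889 (mm7), had levels of -1.30, -1.84 and -1.92 in EAAE E2 uteri, against -1.55, -1.70 and -1.60 in EAAE saline uteri. Its levels were 2.30, 2.68 and 2.08 in WT E2 uteri, against -0.35, -0.30 and 0.04 in WT saline uteri. All WT E2 arrays stood above every other array, the EAAE groups overlapped, and both EAAE groups lay below both WT groups. Kcns3 rose by 2.56 ± 0.19 (SE, n = 3 mice per group), or 5.88-fold, in WT (limma adjusted p = 3.36e-06), the largest rise of any tested Kcn gene, while the change in EAAE was -0.07 (adjusted p = 0.892).

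Kcnf1, probed at chr12:17227061-17227120 and with 2 half-sites in the window shown, had levels of -5.05, -5.31 and -5.66 in EAAE E2 uteri, against -4.65, -5.21 and -5.12 in EAAE saline uteri. The WT levels were -1.81, -1.63 and -1.93 after E2, against -2.68, -3.53 and -2.98 under saline. Its WT groups did not overlap, and all 6 EAAE arrays stood below all 6 WT arrays, with the probe above background on 2 of 3 EAAE E2 arrays. The rise in WT was 1.27 ± 0.23 (limma adjusted p = 0.00119). The other tested modifiers did not rise: Kcng4 fell by 0.52 (adjusted p = 0.0307) and Kcng1 changed by -0.03. The fall of Kcng4 did not pass without WT saline mouse 2 or 3 or WT E2 mouse 2 or 3 (-0.51 to -0.40, adjusted p up to 0.118), and not with quantile scaling (-0.29) or normexp background (-0.15).

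Kcna1, a Kv pore gene best known from nerve, had levels of -0.46, -0.41 and -0.15 in EAAE E2 uteri, against -0.32, -0.34 and -0.16 in EAAE saline uteri. In WT they were 0.76, 0.88 and 0.27 after E2, against -0.77, -1.55 and -0.90 under saline, so that the EAAE groups, which overlapped, lay between the 2 WT groups. Kcna1 rose by 1.71 ± 0.21 in WT (limma adjusted p = 8.84e-05). Of the nerve and Schwann markers, 0 of 11 rose and 5 fell in WT, with sums of linear levels of 3.08 to 3.68 in WT E2 and 4.18 to 4.70 in WT saline uteri. The part of nerve in the level of Kcna1 was not tested. Kcnd3, a pore of the transient A-type current, rose by 0.56 (adjusted p = 0.0068), as did Kcnip2, which encodes an auxiliary subunit of that current, by 0.57 (adjusted p = 0.0302). The rise of Kcnip2 did not pass without WT saline mouse 1 (0.34) or without WT E2 mouse 1 or 2 (0.60 and 0.48, adjusted p up to 0.107). Kcnip4, of the same auxiliary family, fell by 0.66 (adjusted p = 0.0467), a call lost without 8 of the 12 arrays, one at a time (-0.77 to -0.43).

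Among tandem-pore genes, which give background potassium currents, Kcnk5 rose most. Kcnk5, probed at chr14:17798444-17798503, had levels of -3.16, -3.55 and -3.003 in EAAE E2 uteri, against -3.16, -3.46 and -3.94 in EAAE saline uteri. WT uteri had levels of -0.20, -0.20 and -0.11 after E2, against -2.50, -2.70 and -2.51 under saline. The WT E2 arrays stood apart from all 9 others, and the rise in WT was 2.40 ± 0.19, or 5.29-fold (limma adjusted p = 4.71e-06). A second probe was above background on the 3 WT E2 arrays and on 0 of the 9 others, so it gives no size of its own. Kcnk5 encodes an acid-sensitive channel known from kidney epithelium, and its window held no half-site.

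Kcnk1, a weakly inward-rectifying tandem-pore channel, had levels of 1.19, 1.49 and 1.15 in EAAE E2 uteri, against 1.23, 1.49 and 1.24 in EAAE saline uteri. The WT levels were 1.55, 1.57 and 1.57 after E2, against 0.65, 0.47 and 0.63 under saline. Both EAAE groups stood between the WT groups, and Kcnk1 rose by 0.98 ± 0.11 in WT (limma adjusted p = 4.66e-05). Kcnk6, a relative of Kcnk1, rose by 0.35 (adjusted p = 0.0391), a call lost without any 1 of the WT saline or EAAE saline mice or WT E2 mouse 1 or 2 (0.30 to 0.39, adjusted p up to 0.118). Kcnk3, an acid-sensitive channel known from vascular smooth muscle, averaged -1.53 in WT E2 and -1.38 in WT saline uteri and did not pass (log2 change -0.15, adjusted p = 0.471).

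The inward rectifiers moved in both directions. Kcnj4, a strong inward rectifier probed at chr15:79568111-79568169 and with 1 half-site in its window, had levels of -4.13, -3.78 and -3.45 in EAAE E2 uteri, against -3.43, -3.73 and -3.58 in EAAE saline uteri. In WT they were -1.52, -1.45 and -1.83 after E2, against -3.23, -2.70 and -3.53 under saline. The WT E2 arrays stood above all others, the other 3 groups overlapped, and the rise in WT was 1.55 ± 0.22 (limma adjusted p = 0.000248). Kcnj14 rose by 1.22 (adjusted p = 0.0289), being above background on 2 of the 3 arrays of WT saline mice, and did not pass without WT saline mouse 2 or 3 or WT E2 mouse 1 or 2 (0.94 to 1.30, adjusted p up to 0.106), and its rise was 0.58 with normexp background.

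Kcnj8, which encodes the pore of the vascular ATP-sensitive channel, fell the most of all tested Kcn genes. Probed at chr6:142653175-142653234, it had levels of 5.10, 5.39 and 5.46 in EAAE E2 uteri, against 4.66, 4.95 and 5.0003 in EAAE saline uteri. WT uteri had levels of 2.72, 2.30 and 3.13 after E2, against 4.90, 5.17 and 5.45 under saline. The WT E2 arrays lay below all 9 others, and in EAAE every E2 array stood above every saline array, a change of 0.45 that did not pass (adjusted p = 0.339). Kcnj8 fell by 5.5-fold in WT (log2 change -2.46 ± 0.21, limma adjusted p = 8.55e-06), and its second probe gave -2.77.

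Kcnj8 and its partner did not move alike. Abcc9, the sulfonylurea receptor that completes the Kcnj8 channel, changed by -0.17 in WT (limma adjusted p = 0.359), and Abcc8, the receptor of the pancreatic form, rose by 0.86 (adjusted p = 0.00343). Kcnj11, the pore of that form, changed by -0.10 (adjusted p = 0.853). Of 8 pericyte markers, 1 rose and 3 fell in WT, and their summed level ran from 77.3 to 81.4 in WT E2 and from 74.4 to 79.0 in WT saline uteri. Of 10 endothelial markers 0 rose and 5 fell (33.2 to 35.8 in WT E2, 46.5 to 53.3 in WT saline uteri), and of 10 stromal markers 0 rose and 9 fell, with a median change of -0.99. Of 10 adipocyte markers 9 fell, with a median of -3.15 and sums of 6.57 to 30.9 in WT E2 and 33.3 to 210 in WT saline uteri, while of 12 smooth muscle markers 1 rose and 0 fell. The part of these cell types in the falls of Kcn genes was not tested.

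**Figure D2:**
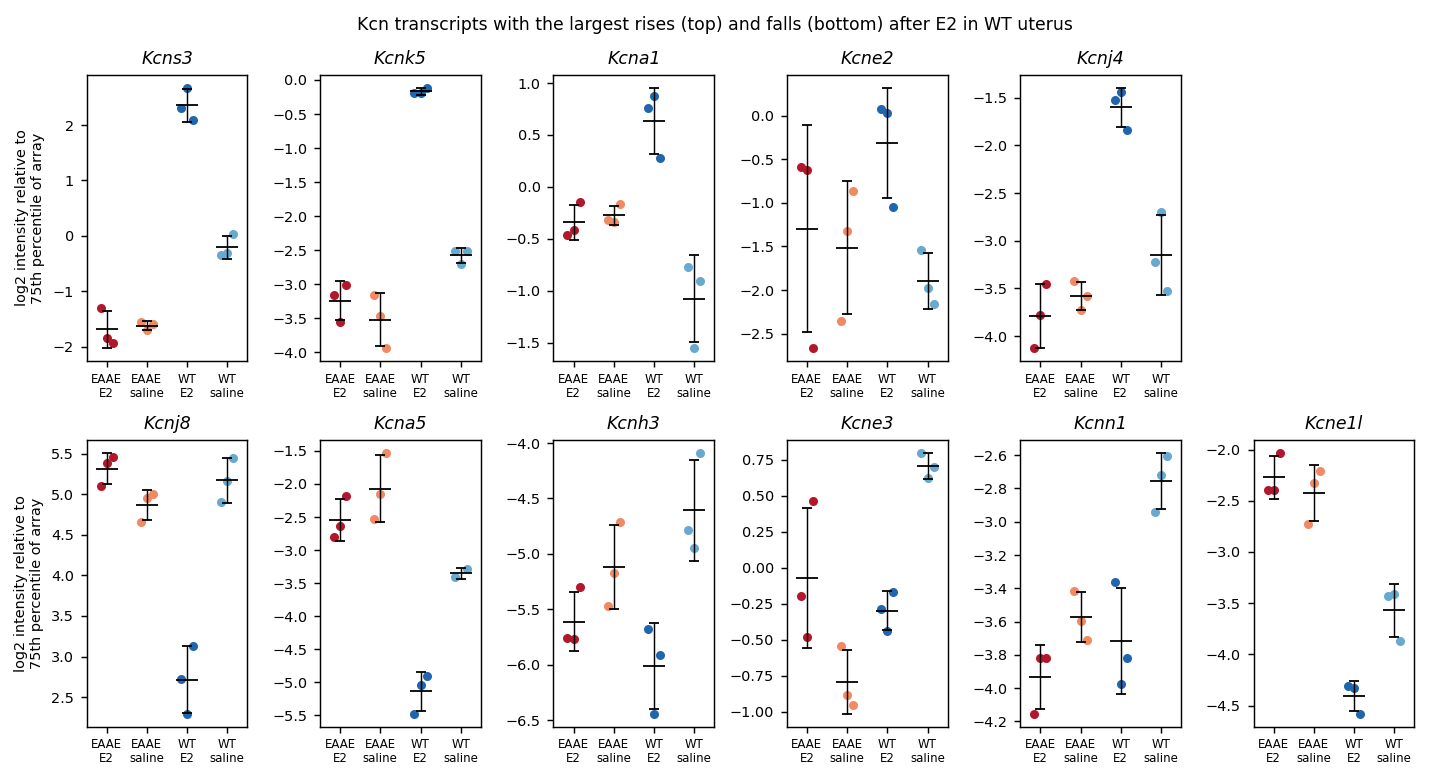
Level of 5 Kcn genes from the largest rises (top) and of the 6 with the largest falls (bottom) after E2 in WT uterus, as log2 intensity relative to the 75th percentile of each array (vertical axes, scaled per gene). Points are single mice, bars are means with SD, and groups run from EAAE E2 and EAAE saline to WT E2 and WT saline. The Kcns3 arrays of WT E2 sit between 2.08 and 2.68, above all others.

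Kcna5, a Kv pore known from vascular and cardiac muscle, had levels of -2.80, -2.64 and -2.19 in EAAE E2 uteri, against -2.53, -2.15 and -1.53 in EAAE saline uteri. The WT levels were -5.47, -5.04 and -4.91 after E2, against -3.41 and -3.29 under saline, where the spot of WT saline mouse 2 was an outlier and left out. All 3 WT E2 arrays lay below the rest, 2 of them above background, and the log2 change was -1.79 ± 0.29 (limma adjusted p = 0.000822), or -0.905 with normexp background. Kcnh3, a Kv pore of the ether-a-go-go family, was at least 2-fold lower in WT E2 than in WT saline uteri (limma adjusted p = 0.00203), since it was above background on 0 of 3 WT E2 arrays and 3 of 3 WT saline arrays. With normexp background its log2 change was -0.55, a smaller fall than this bound.

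Calcium-activated channel genes fell or did not pass in WT. Kcnn1 and Kcnn2 encode SK channels, which open when cell calcium rises. Kcnn1 had levels of -3.36, -3.98 and -3.82 in WT E2 uteri, against -2.94, -2.72 and -2.61 in WT saline uteri, and fell by 0.96 on the log2 scale (limma adjusted p = 0.000848). Kcnn2 had levels of -2.72, -2.87 and -2.89 in WT E2 uteri, against -2.09, -2.06 and -1.86 in WT saline uteri, and fell by 0.82 (adjusted p = 7.19e-05). Neither pair of groups overlapped.

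Kcnn3, the SK gene best known from uterine smooth muscle, had levels of -4.77, -4.91 and -5.29 in EAAE E2, -5.06, -5.17 and -2.89 in EAAE saline, -4.55, -2.84 and -4.48 in WT E2 and -4.99, -4.70 and -4.71 in WT saline uteri. One EAAE saline and one WT E2 array stood above all the rest, and no comparison passed. Kcnma1, the BK pore, had levels of -4.82, -4.63 and -4.88 in EAAE E2, -4.12, -4.65 and -4.31 in EAAE saline, -5.26, -5.23 and -5.30 in WT E2 and -4.84, -4.81 and -4.58 in WT saline uteri. It fell by 0.52 in WT (limma adjusted p = 0.00852) without overlap of the WT groups, a call lost with quantile scaling (-0.31) and normexp background (-0.17). The Kcnma1 probe was above background on 2 of 3 WT E2 arrays. Kcnmb1, the smooth muscle beta subunit that raises the calcium sensitivity of BK, averaged -1.57 in WT E2 and -1.64 in WT saline uteri and did not pass (log2 change 0.07, adjusted p = 0.675), and its second probe gave -0.44 (adjusted p = 0.0504).

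The Kcne genes encode small single-span subunits that change the gating of Kv pores. Kcne3, which holds Kcnq1 channels open in epithelium, had levels of -0.20, -0.48 and 0.46 in EAAE E2 uteri, against -0.54, -0.88 and -0.95 in EAAE saline uteri. In WT they were -0.29, -0.44 and -0.17 after E2, against 0.80, 0.62 and 0.70 under saline. Neither genotype's groups overlapped, and they moved in opposite directions, with a fall in WT of 1.005 (limma adjusted p = 0.00261) and a change in EAAE of 0.72 that did not pass (adjusted p = 0.129). Kcne1l, an X-linked relative now also called Kcne5, fell by 0.84 in WT (adjusted p = 0.00267), or by 0.48 with normexp background. Kcne2, which joins Kcnq1 in stomach epithelium, had levels of 0.08, 0.03 and -1.05 in WT E2 uteri, against -1.54, -1.98 and -2.16 in WT saline uteri. It rose by 1.58 in WT (adjusted p = 0.0419), a call that was lost without any WT saline mouse, WT E2 mouse 1 or 2, or EAAE saline mouse 2 (1.38 to 1.76, adjusted p up to 0.122). With slide as a block it was 1.30 (adjusted p = 0.104), and with slide and position 0.48 (adjusted p = 0.618). Kcne1, the partner of Kcnq1 in heart, changed by 0.09 and did not pass. Kcnq1 itself, probed at chr7:139854115-139854174, had levels of 1.10, 1.005 and 1.09 in WT E2 uteri, against 1.27, 1.01 and 1.10 in WT saline uteri, which overlapped (log2 change -0.06, adjusted p = 0.659).

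The second comparison asks what E2 did in EAAE uteri. Of the 60 tested Kcn genes, 0 rose and 2 fell (3.33%, against a background of 1.45% of all genes tested, 0.689% higher and 0.762% lower), and 11 (18.3%) had an unadjusted p under 0.05, against 16% of all genes. The 2 genes were Kcnh2, the ether-a-go-go pore that helps end contractions of uterine muscle, and Kcne4, an auxiliary subunit that reduces Kv currents. Kcnh2 had levels of -1.77, -1.25 and -1.25 in EAAE E2 uteri, against -0.79, -0.60 and -0.49 in EAAE saline uteri, and fell by 0.79 ± 0.15 (limma adjusted p = 0.0397). Kcne4 had levels of -3.31, -3.65 and -3.55 in EAAE E2 uteri, against -2.75, -3.08 and -2.89 in EAAE saline uteri, and fell by 0.60 ± 0.12 (adjusted p = 0.0425). Neither pair overlapped, but both calls sat close to the threshold, and leaving out single arrays gave 0 to 2 calls (values of -0.88 to -0.62 in Kcnh2 and -0.68 to -0.52 in Kcne4 where lost, adjusted p up to 0.119). Both were lost without WT saline mouse 1 or 2, without any WT E2 or EAAE saline mouse, or without EAAE E2 mouse 2, while Kcnh2 alone was lost without EAAE E2 mouse 1 and Kcne4 alone without EAAE E2 mouse 3.

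The third comparison tests whether the E2 response itself differed between the genotypes, as EAAE minus WT. It passed for 14 of 60 Kcn genes (23.3%, against 37.3% of all genes tested, 22.2% higher and 15.1% lower), 6 higher and 8 lower. Of the 13 genes that rose in WT, 7 had a lower response in EAAE, among them Kcns3 (-2.63, limma adjusted p = 6.49e-05), Kcnk5 (-2.12), Kcna1 (-1.78), Kcnj4 (-1.76), Kcnf1 (-1.62) and Kcnk1 (-1.03). For the other 6, Kcne2, Kcnj14, Kcnip2, Kcnd3, Kcnk6 and Kcnq1ot1, the difference did not pass. Of the 10 genes that fell in WT, 6 had a higher response in EAAE: Kcnj8 (2.91, adjusted p = 6.58e-05), Kcne3 (1.73), Kcna5 (1.31), Kcng4 (1.02), Kcne1l (0.98) and Kcnn2 (0.75). The difference of Kcna5 did not pass without WT saline mouse 1 or 3, WT E2 mouse 1, EAAE saline mouse 2 or EAAE E2 mouse 3 (1.14 to 1.38, adjusted p up to 0.0797), and not with scaling to the array median (1.23) or normexp background (0.54). The difference of Kcng4 did not pass with normexp background (0.41). For Kcnh3, Kcnn1, Kcnip4 and Kcnma1 it did not pass, and for Kcnma1 the responses were -0.42 in EAAE and -0.52 in WT, a difference of 0.10 ± 0.19 (SE). Kcne4 was the remaining gene, with a difference of -0.71 (adjusted p = 0.00817). A p that missed the threshold does not show that the genotypes responded alike. The same counts among all genes that rose or fell in WT are not given here. The WT arrays enter both the WT response and the difference, which favours differences of opposite sign to the WT change.

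**Figure D3:**
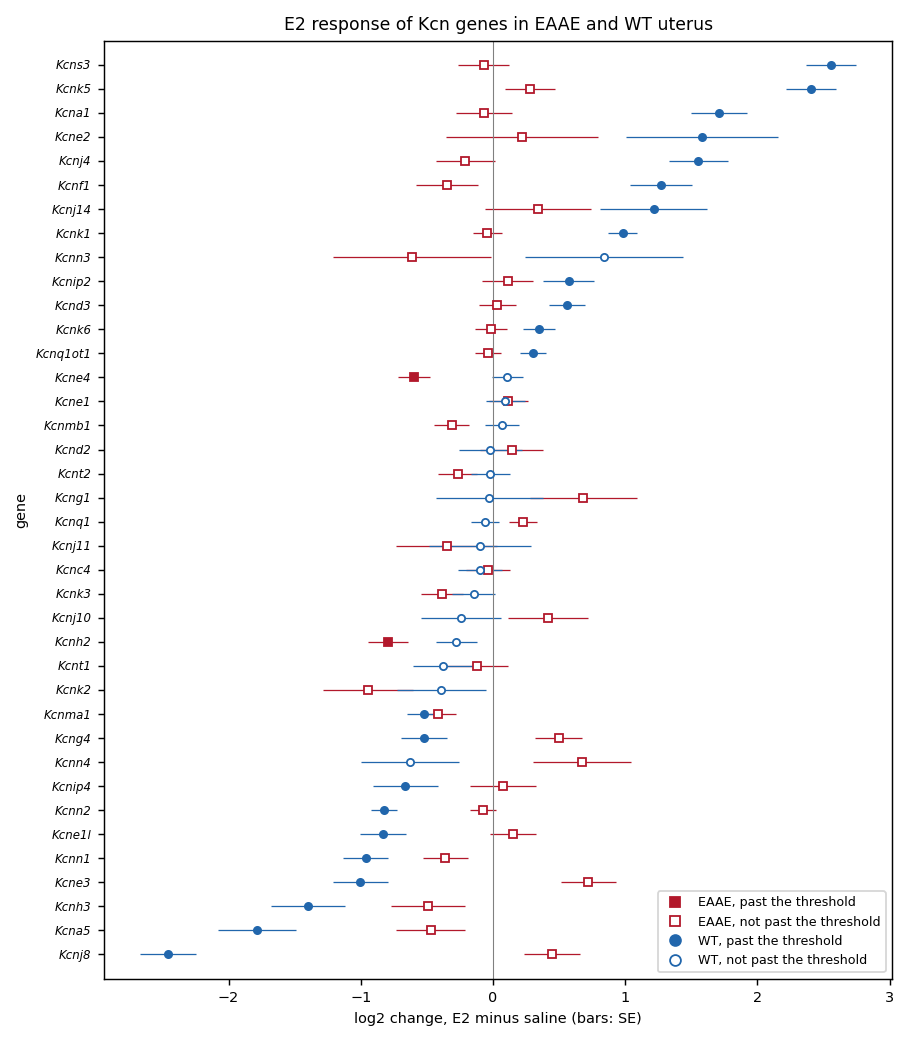
Log2 change, E2 minus saline (horizontal axis, bars show SE) of the 38 tested Kcn genes named in the text, with EAAE as squares and WT as circles, sorted by the WT change. Filled symbols passed the threshold. In WT 22 symbols are filled, and in EAAE 2, those of Kcnh2 and Kcne4.

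The fourth comparison asks how EAAE uteri differed from WT before hormone. Under saline 31 of 60 Kcn genes differed, 16 higher and 15 lower in EAAE (51.7%, against a background of 29.6% of all genes tested, 14.5% higher and 15% lower). Of 18 Kv pore-forming genes 9 were higher, 1 was lower and 8 did not pass, and of 4 modifiers 0 were higher and 3 lower. Kv auxiliary genes split into 2 higher and 4 lower of 11, pores classed as calcium- or sodium-activated into 3 and 3 of 8, and tandem-pore genes into 2 and 3 of 8. Only 1 of 7 inward rectifiers (Kcnj10, lower) and 0 of 3 BK beta genes differed. EAAE and WT saline arrays shared 1 slide, and since both arrays on it also entered the fit, the like sign of all 31 differences there is no separate support. A fit with slide as a block and array position as a term called 3 genes (Kcnd2, Kcnq1 and Kcne4). The share of all genes called by that fit is not given, so whether the excess over background held there cannot be read. Genotype and array position partly run together in the saline groups.

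Kcnd2, a pore of the transient A-type current, had the largest excess. Probed at chr6:21665679-21665738, its levels were -1.11, -0.42 and -0.14 in EAAE E2 and -0.47, -1.07 and -0.56 in EAAE saline uteri, against -2.52, -2.71 and -2.97 in WT E2 and -2.82, -2.63 and -2.70 in WT saline uteri. All EAAE arrays stood above all WT arrays, and E2 moved neither genotype past the threshold. Under saline Kcnd2 was 4.04-fold higher in EAAE (log2 difference 2.02 ± 0.24, limma adjusted p = 0.000195), with 2.12 from its second probe.

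Kcnq1, the pore of slow and epithelial potassium currents, had levels of 2.61, 2.71 and 2.62 in EAAE E2 and 2.38, 2.62 and 2.25 in EAAE saline uteri, above every WT array given earlier. It was 1.29 ± 0.11 higher under saline (limma adjusted p = 1.97e-05). Kcnc4, a fast-gating Kv pore, was 1.22 higher (adjusted p = 0.000468), also with no overlap between EAAE and WT arrays. Kcna5 was 1.28 higher (adjusted p = 0.0102), a difference that did not pass without WT saline mouse 1 (1.22, adjusted p = 0.0587), and Kcne1l was 1.15 higher (adjusted p = 0.000896). The sodium-activated pores Kcnt1 and Kcnt2 were 0.94 and 0.60 higher, with adjusted p of 0.0118 and 0.0117, though the second probe of each did not pass (0.83 and 0.20), nor did either gene with slide as a block (0.63 and 0.61). Kcnk3 was 0.62 higher (adjusted p = 0.0158), which did not pass without WT saline mouse 1 or EAAE saline mouse 1 (0.57 and 0.56).

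Lower in EAAE was above all Kcne4, with levels of -0.46, -0.40 and -0.53 in WT E2 and -0.71, -0.58 and -0.43 in WT saline uteri, above all 6 EAAE arrays given earlier. Kcne4, probed at chr1:79036190-79036249, was 5.04-fold lower in EAAE under saline (log2 difference -2.33 ± 0.12, limma adjusted p = 1.14e-06). Kcnf1 and Kcns3, the silent subunits, differed by -1.93 and -1.41 under saline, with adjusted p of 0.000217 and 0.000436, and Kcnf1 by -1.015 with normexp background. Kcne3 differed by -1.50 (adjusted p = 0.000542), and Kcnn4, the intermediate-conductance calcium-activated pore of epithelia and blood cells, by -1.60 (adjusted p = 0.00905).

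Kcnk2, a stretch-sensitive tandem-pore channel described in uterine muscle, had levels of -5.41, -5.63 and -6.91 in EAAE E2 and -4.84, -5.34 and -4.93 in EAAE saline uteri, against -3.54, -3.52 and -4.005 in WT E2 and -3.43, -3.07 and -3.39 in WT saline uteri. All EAAE arrays stood below all WT arrays, and Kcnk2 differed under saline by -1.74 ± 0.34 (limma adjusted p = 0.00367; -0.87 with normexp background). After E2 it was at least 3.4-fold lower in EAAE, being above background on 0 of 3 EAAE E2 arrays. With normexp background the log2 difference after E2 was -0.93, which is smaller than this bound. Kcnj10, an inward rectifier known from glia, had levels of -5.17, -6.41 and -5.87 in EAAE saline uteri, against -3.998, -3.90 and -4.07 in WT saline uteri, a difference of -1.83 (adjusted p = 0.00152), with 1 of 3 EAAE saline arrays above background, so that its size rests partly on background (-0.68 with normexp background). Kcnh2 differed by -0.76 (adjusted p = 0.00442).

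Cell type markers also differed between the saline groups. Of 12 epithelial markers 9 were higher and 1 lower in EAAE, with sums of 202 to 255 in EAAE saline and 129 to 145 in WT saline uteri. Of 11 nerve and Schwann markers 7 were higher and 1 lower (5.73 to 6.52 in EAAE saline, 4.18 to 4.70 in WT saline uteri), and of 9 striated muscle markers 4 were higher and 1 lower. Of 10 macrophage markers 1 was higher and 5 were lower (34.7 to 50.7 in EAAE saline, 108 to 168 in WT saline uteri), and of 12 smooth muscle markers 0 were higher and 2 lower. The part of these lists in the genotype differences of Kcn genes was not tested.

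**Figure D4:**
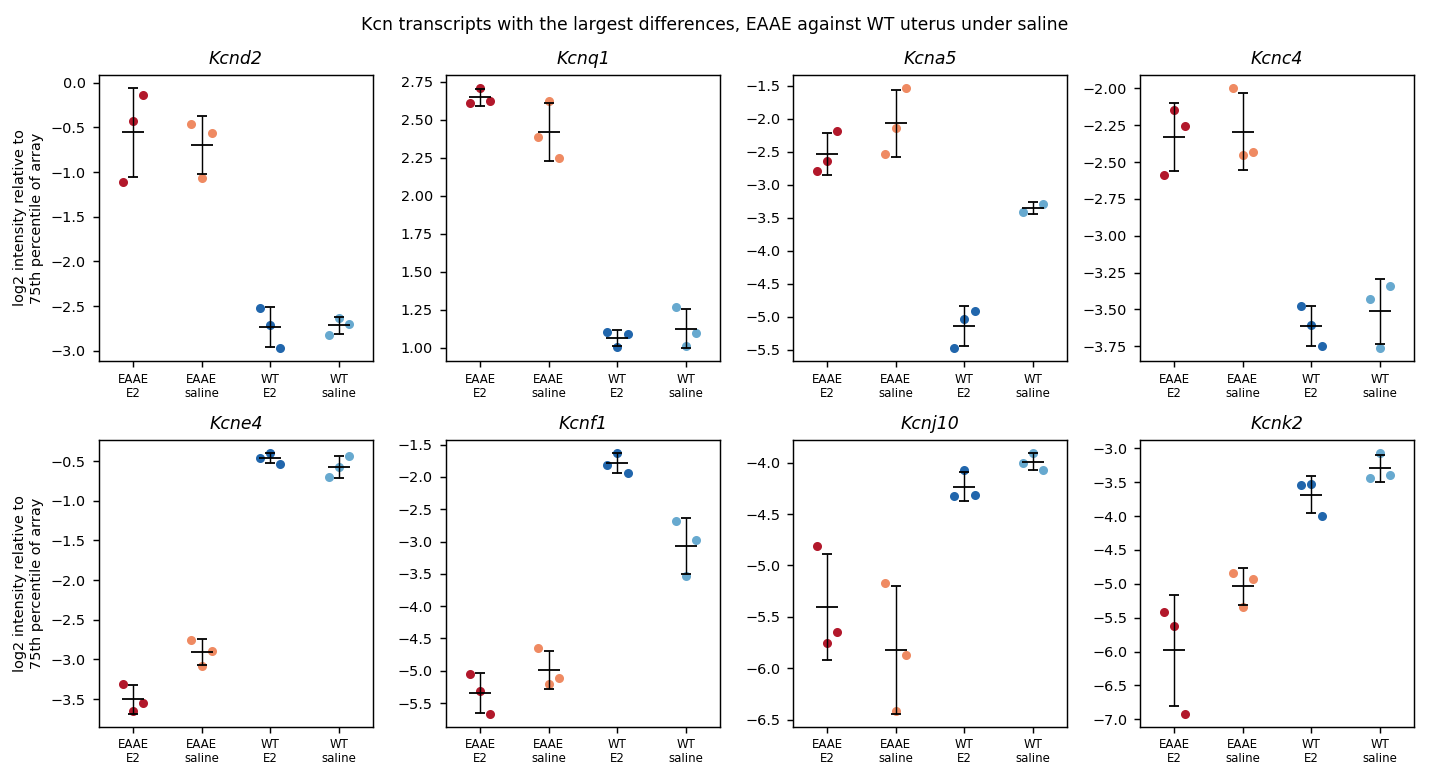
Level of the 4 Kcn genes with the largest excess and the 4 with the largest deficit in EAAE against WT under saline, as log2 intensity relative to the 75th percentile of each array (vertical axes, scaled per gene). Points are single mice and bars are means with SD. In these 8 genes the EAAE and WT arrays do not overlap, with 1 WT saline array missing for Kcna5.

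**Figure D5:**
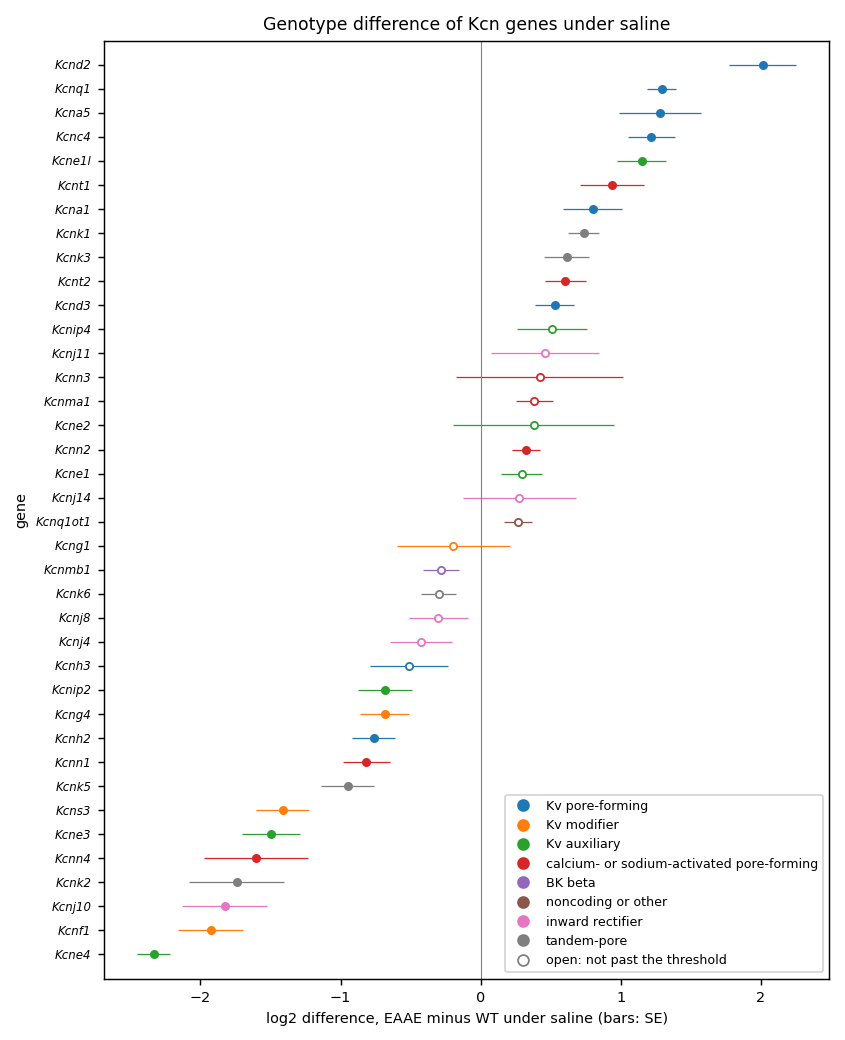
Log2 difference between EAAE and WT uteri under saline (horizontal axis, bars show SE) of the same 38 Kcn genes, coloured by subunit class, with filled points past the threshold. Of the 38 genes, 24 passed. Differences run from -2.33 (Kcne4) to 2.02 (Kcnd2).

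The fifth comparison sets EAAE against WT after E2. Here 13 Kcn genes were higher and 16 lower in EAAE (48.3%, against a background of 58% of all genes tested, 33.5% higher and 24.5% lower). The largest deficits were those of Kcns3 (-4.04 ± 0.19, limma adjusted p = 8.72e-08), Kcnf1 (-3.55, or -2.18 with normexp background), Kcnk5 (-3.07) and Kcne4 (-3.04). The largest excesses were those of Kcnj8 (2.60 ± 0.21, adjusted p = 3.06e-06), Kcna5 (2.60, or 1.54 with normexp background), Kcnd2 (2.18) and Kcne1l (2.13). With slide as a block and array position as a term, all the deficits and excesses just named passed. The deficits of Kcna1 and Kcnk1 described below did not (-1.30 and -0.56, limma adjusted p = 0.077 and 0.104). Nor did the calls of Kcnip4, Kcnj10, Kcnk6 and Kcnt1, among others. Of the genes called under saline 19 were called with the same sign after E2, which is 61.3% of the saline calls and 65.5% of the calls after E2, against 62.5% and 31.9% over all genes. The saline excess of Kcna1 did not pass without EAAE saline mouse 3 (0.75, adjusted p = 0.0582). Kcna1 and Kcnk1 changed sign, being 0.80 and 0.74 higher in EAAE under saline and lower after E2 (-0.98 and -0.29), a deficit of Kcnk1 that did not pass without any 1 of 9 arrays, among them each WT E2 array (-0.30 to -0.22, adjusted p up to 0.138). Smooth muscle markers were lower in 8 of 12 cases after E2, with sums of 333 to 528 in EAAE E2 and 541 to 637 in WT E2 uteri, and Kcnmb1 differed by -0.66 (adjusted p = 0.00127). The part of smooth muscle in that difference was not tested, and Kcnma1 differed the other way (0.49, adjusted p = 0.00963), a call lost with quantile scaling (0.28). With slide and position neither gene passed, at -0.53 in Kcnmb1 (limma adjusted p = 0.164) and 0.33 in Kcnma1 (adjusted p = 0.339).

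Genes that work with potassium channels were counted from fixed lists. Their counts stand against the background given above of 49.3% of all genes called in WT and 1.45% in EAAE, at which a count of 0 in a short list says little. Of 22 tested partners outside the Kcn names, 3 rose and 3 fell after E2 in WT (27.3%) and 0 in EAAE, with a WT median of -0.10. The 3 that rose were Nedd4l (2.40), a ubiquitin ligase that removes ion channels from the membrane, Sgk1 (2.28), a kinase that opposes it, and Abcc8. The responses of all 3 were lower in EAAE (Nedd4l -2.95, limma adjusted p = 0.000126, Sgk1 -1.42 and Abcc8 -1.12). Of 32 calcium, sodium and related channel genes 7 rose and 11 fell in WT (56.2%) and 0 in EAAE. The T-type calcium pores Cacna1h and Cacna1g, which open near the resting potential, rose by 2.46 and 2.01 (adjusted p = 3.47e-06 and 2.82e-05). Of 15 potassium pump and cotransporter genes 4 rose and 7 fell in WT (73.3%) and 0 in EAAE. Slc12a4, a potassium-chloride cotransporter, rose by 1.97, while Atp1b1, a beta subunit of the sodium-potassium pump, fell by 0.99 (adjusted p = 0.000179).

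Several tested probes were present for 15 Kcn genes. Those of some genes disagreed, among them Kcnq1ot1, Kcnn2 and Kcnt2, as listed at the end. Kcnt2 changed by -0.02 in WT on the brighter and by 0.47 (limma adjusted p = 0.0137) on the dimmer probe. The class counts use the brighter probe. Of the 60 tested genes, 43 (71.7%, against 71.9% of all genes) passed in at least 1 of the 5 comparisons and 17 in none. Genes never above background included 6 Kv pores (among them Kcna4, Kcna6, Kcnh7 and Kcnh8), 4 modifiers (Kcng3, Kcns1, Kcns2 and Kcnv1), the inward rectifiers Kcnj1, Kcnj5 and Kcnj6, the tandem-pore gene Kcnk16 and the noncoding Kcnmb4os2, so no level can be given for these.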

How the data were processed

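Per the file headers, the authors scanned 1-colour arrays and extracted spots with Agilent Feature Extraction 9.5.3.1. The deposited processed intensity is a linear intensity corrected for background within each array and not scaled between arrays, with array medians of 162.5 to 249.5. Per the labels, 500 ng of RNA per uterus was labelled with Cy3. Control spots (1639 per array) and outlier spots (56 to 117) were left out. Intensities were taken to log2 and each array's 75th percentile was subtracted. Of 41174 probes 29017 were tested, and the brightest tested probe stood for each of 19301 genes. All 12 arrays were fitted with limma 3.58.1 (R 4.3.3, lmFit and eBayes), 2-sided, with Benjamini-Hochberg adjustment over all genes and a threshold of 0.05. Python 3.11.15 made tables and figures. Where the dimmer group was not above background a fold is a bound ("at least N-fold"), against the lowest level of any probe above background. Such a bound holds for the main processing only. Named genes were the 6 largest rises and falls for E2 in WT, the 4 largest each way in other comparisons and 6 fixed smooth muscle genes. Some genes enter the counts over the Kcn genes and lists but are not reported here by name, in the figures of single genes or among the 96 calls followed under each alternative. The members, lists and named genes were chosen with earlier results of these data known. Coordinates of probes are those of the files (mm7), and promoter windows are from RefSeq (GRCm38.p6). The files do not say in which exon or UTR a probe lies. The labels give 1 mouse per array, and array number limits the precision. Same-numbered mice of different groups deviated with r of -0.28 to 0.19 (12 pairs), and samples were not paired in the main fit. With 3 mice per group such r cannot exclude a pairing.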

Additional observations from a re-analysis of the deposited data

Results flagged for a closer look

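For Kcn genes whose E2 response differed between EAAE and WT by the interaction test of limma (n = 3 mice per group), the responses are set side by side as log2 changes. In Kcns3 the response was -0.07 in EAAE and 2.56 in WT, a difference of -2.63. In Kcnk5 the difference was -2.12, in Kcna1 -1.78, in Kcnj4 -1.76, in Kcnf1 -1.62 and in Kcnk1 -1.03. All of these rose in WT, and their responses in EAAE lay between -0.35 (Kcnf1) and 0.28 (Kcnk5). In Kcne4 the difference was -0.71, from a fall in EAAE. Genes that fell in WT had positive differences, of 2.91 in Kcnj8, 1.73 in Kcne3, 1.31 in Kcna5, 1.02 in Kcng4, 0.98 in Kcne1l and 0.75 in Kcnn2. Signs opposite to the WT change are favoured, since the WT arrays enter both values.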

How the results depend on the processing

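Of 96 calls of Kcn genes, 41 passed under every alternative run. For E2 in WT the count of 23 was 15 with slide as a block and position as a term. For E2 in EAAE the count of 2 was 0 with scaling to the array median, without a filter on dim probes, with slide as a block, with slide and position, and with only the groups compared, and 1 with the replicate block. For EAAE against WT under saline the count of 31 was 3 with slide and position. After E2 that fit also lost calls, among them those of Kcna1, Kcnk1, Kcnma1 and Kcnmb1. Every EAAE E2 array sat at position 4 of its slide, so that group and position cannot be told apart. WT saline arrays sat at positions 1, 1 and 2 (slides 1, 3 and 3), and EAAE saline arrays at positions 2, 3 and 3 (slides 2, 1 and 2). Genotype under saline is thus also largely confounded with position and slide. Elsewhere the replicate block gave 23, 17, 30 and 27 calls, in place of 23, 14, 31 and 29, for E2 in WT, the response difference, and EAAE against WT under saline and after E2. Leaving out 1 array gave 16 to 24 calls for E2 in WT, 0 to 2 for E2 in EAAE, 13 to 19 for the response difference, 25 to 32 for EAAE against WT under saline and 27 to 33 after E2. These counts stand without the share of all genes called under each alternative. They therefore do not show whether Kcn genes moved more or less than other genes.

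Direction turned in these cases, with the value as reported in brackets. The mean of all tested probes gave 0.29 for Kcnq1ot1 after E2 (-0.08). Another probe of the gene gave -0.10 for Kcnn2 under saline (0.33), -0.25 for Kcnq1ot1 in WT (0.30) and 0.65 after E2, and 0.47 for Kcnt2 in WT (-0.02) and -0.36 after E2 (0.36). Slide with position gave -1.55 for Kcnmb4 after E2 (0.01). The cause was not tested. Among the 96 calls, normexp background gave values over 1.5 times smaller for 27, slide with position for 13 (and larger for 3). Some groups measured Kcnh3, Kcnk2, Kcnj10, Kcng4, Kcnf1, Kcna5 and Kcnma1 close to background, which limits their folds.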
